A study of Mus musculus with 89 samples.

Results

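In the allergic lung, the same dose of PEG-coated CuO (CuO PEG) or core CuO nanoparticles was compared directly. The comparison held 6 of the 89 samples of the series, found by their labels: 3 of OVA-challenged mice given CuO PEG at dose 40 and 3 of OVA-challenged mice given core CuO at dose 40, both in μg. All mice were female BALB/c of 6–8 weeks, sensitised on days 1 and 10 with ovalbumin (OVA, a chicken egg protein) in alum, challenged with OVA or PBS by oropharyngeal aspiration on 4 consecutive days together with the material, and their lungs were taken 1 day after the last exposure. The other groups set beside them were the OVA controls without material (n = 8), the PBS controls (n = 7), the PBS-challenged mice given the same materials (n = 3 each), the OVA-challenged mice given aminated (CuO NH3) or carboxylated (CuO COOH) particles at dose 40 (n = 3 each), and the OVA-challenged mice given core CuO or CuO PEG at 10 and 2.5 (n = 3 each). PBS-challenged mice were sensitised too. RNA was pooled from 2 RNA samples for each array channel (Cy3 or Cy5 dye) of a mouse Agilent array, and the test measures the spread between such pools. Doses were matched by the mass of the whole material, and a PEG-coated particle carries less copper per mass than a core particle.

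In the OVA model, sensitised mice that inhale the allergen develop a Th2 response, in which helper T cells, eosinophils, alternatively activated macrophages and mucus-producing goblet cells accumulate or expand in the airways. Dissolving CuO releases copper ions, which bind metallothioneins and can damage epithelium and leukocytes. Polyethylene glycol is a hydrophilic polymer used to cover particle surfaces. Cytotoxic lymphocytes carry granzymes, antigen-presenting cells show peptides to T cells on MHC class II molecules, and simple keratins form the filaments of the lining epithelium.

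The lung identity of the 6 samples was clear. The surfactant genes Sftpc and Sftpb, the alveolar type 1 gene Ager, the club cell gene Scgb1a1 and the endothelial gene Cldn5 were well above background in 6 of 6 samples, and their mean levels lay at the 98.8th percentile or higher of all genes. The median foreground intensity was 70 to 86 in the CuO PEG samples and 97.5 to 161 in the CuO samples, against 62 to 203 over all 89, and 0 spots were saturated. The CuO samples lay on slides 1 to 3 and the CuO PEG samples on slides 4 and 5, so that no slide held both, and the materials are linked through the controls that lay on both sets of slides (4 OVA controls on each). The number of arrays and this link limit the precision. The highest correlation between any 2 samples of the 6 was 0.996.

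After CuO PEG, 79 genes were higher and 11 lower than after core CuO, by a threshold of 0.05 on the adjusted p and of 0.58 on the size of the log2 fold change (1.49-fold), that is 0.393% of the 22911 genes tested (limma with dye, slide and array position as terms, 3 samples against 3). The higher genes were 0.345% and the lower genes 0.048% of all. The log2 fold changes of the higher genes ran from 0.59 to 2.91 with a median of 0.88, those of the lower genes from −1.30 to −0.59 with a median of −0.77, and their standard errors from 0.13 to 0.63. T and cytotoxic lymphocyte genes, MHC class II and interferon gamma response genes, and the eosinophil-associated ribonucleases were among the higher genes, and the keratins Krt7 and Krt8, Fbln2, Col2a1 and the chemokine Ccl20 among the lower ones. The 6 values of each of the 90 genes separated by material, as did those of 6934 of all genes (30.3%). Of the 90 genes, 81 were well above background in all 6 samples. By limma, 2517 genes had an unadjusted p below 0.05, a level that many genes also pass by chance, and 108 an adjusted p below 0.05 at any fold change.

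The number of genes called rested on the terms and on single samples, and the sign of some of them on the slide terms. It was 0 without core CuO replicate 1, 33 without core CuO replicate 3, 180 without core CuO replicate 2, 15 without CuO PEG replicate 1, 170 without CuO PEG replicate 2, and 35 and 49 without OVA control replicates 7 and 4. With the hybridisation as a fixed term 1 gene was called, with only the OVA-challenged samples in the fit 0, and relative to the OVA controls of the same slides 9 (limma). Of the 90 genes, 0, 0 and 9 kept their call in these fits. All 90 kept their sign in each, but they were chosen from these same samples, so that is a description. When arrays were a random block without slide terms 1069 genes were called (505 higher, 564 lower), and of the 90 genes 85 kept their sign and 68 their call.

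**Figure D1:**
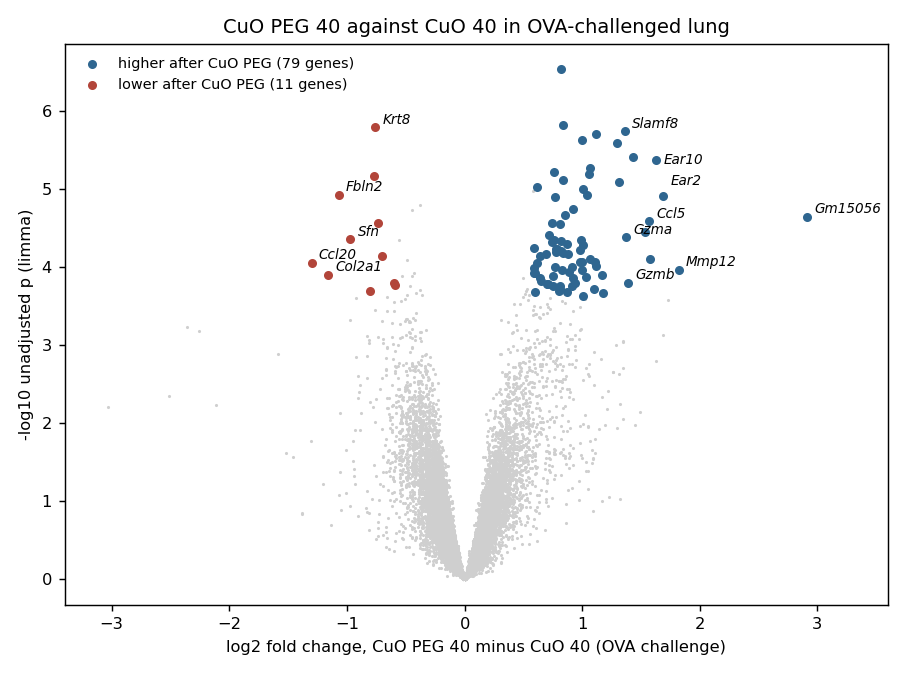
Log2 fold change of each of 22911 genes (CuO PEG 40 minus CuO 40, OVA challenge, x axis) against the −log10 unadjusted p of limma (y axis). Filled points are the 79 genes called higher (blue) and the 11 called lower (red) after CuO PEG, grey points the genes not called, and most called genes lie on the right.

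Genes of T cells and cytotoxic lymphocytes were higher after CuO PEG. Of 20 T cell genes measured, 8 were higher after CuO PEG, among them Cd2, Cd3d, Cd3g, Cd6, Cd28, Ccr7 and Il2ra, 0 were lower, and the median log2 fold change of the 20 was 0.75, against −0.01 over all genes. Of 20 NK and cytotoxic lymphocyte genes, 8 were higher (Gzma, Gzmb, Klrd1, Ccl5, Il2rb, Il21r, Cxcr6 and Ms4a4b), 0 lower, with a median of 0.85. This second list was written after the called genes were seen, so its count is a description. In bulk lung, fewer cells of a type and less RNA per cell cannot be told apart. Both counts were 0 without core CuO replicate 1 and without CuO PEG replicate 1. They were also 0 relative to the OVA controls of the same slides and with the hybridisation as a fixed term. With only OVA samples and with an added replicate block they were 0 too. When arrays were a random block without slide terms the T cell count was 15 and the cytotoxic count 16, and with loess they were 3 and 6. The T cell count was also 2 without core CuO replicate 3 and 4 and 3 without OVA control replicates 4 and 7, and the cytotoxic count 4, 5 and 4 without these, 5 without CuO PEG replicate 3.

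The granzyme genes encode the proteases of cytotoxic granules. Gzma read 10.15, 11.01 and 10.17 log2 units in core CuO replicates 1, 2 and 3 and 12.08, 11.69 and 11.68 in CuO PEG replicates 1, 2 and 3, against 12.48 to 13.15 (median 12.83) in the 8 OVA controls. Every CuO PEG sample lay above every core CuO sample and below every control. The fold was 2.59 (log2 1.37, SE 0.31, limma adjusted p = 0.0274). Gzmb read 6.62, 7.27 and 6.82 after core CuO and 8.50, 8.22 and 8.16 after CuO PEG, with controls from 8.46 to 9.06 (median 8.66). The highest of the CuO PEG samples reached the control range, and the fold was 2.62 (limma adjusted p = 0.0437).

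Klrd1, the CD94 receptor chain of NK cells and activated CD8 T cells, read 7.29, 7.67 and 7.32 after core CuO and 9.0, 8.48 and 8.69 after CuO PEG, with controls from 8.67 to 9.11 (median 8.92). Replicates 1 and 3 after CuO PEG lay within the control range and no core CuO sample did. The log2 fold change was 1.30 (SE 0.25, limma adjusted p = 0.00865). Ccl5, a chemokine made by T and NK cells that draws further leukocytes, read 10.60, 11.18 and 11.18 after core CuO and 13.24, 11.87 and 12.57 after CuO PEG (2.97-fold, limma adjusted p = 0.0209). Its CuO PEG samples spread widely, with 1 above and 2 below the control range of 12.60 to 13.10, and the log2 fold change went from 1.57 to 1.03 without CuO PEG replicate 1. Ms4a4b, a membrane protein of T cells, gave a log2 fold change of 1.43 (SE 0.28, limma adjusted p = 0.011), with 8.98, 9.45 and 9.0 after core CuO and 10.82, 10.40 and 10.49 after CuO PEG.

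Cd2, an adhesion receptor of T and NK cells, read 9.51, 9.82 and 9.70 after core CuO and 10.90, 10.81 and 10.68 after CuO PEG, with controls from 11.31 to 11.61 (median 11.50). Both materials lay below every control for this gene. The log2 fold change between them was 1.12 (SE 0.21, limma adjusted p = 0.00865). Cd3g, a chain of the T cell receptor complex, read 7.72, 8.15 and 8.15 after core CuO and 9.26, 8.89 and 8.89 after CuO PEG, with controls from 8.97 to 9.47. The CuO PEG values reached the control range in 1 of 3 samples, and the log2 fold change was 1.00 (SE 0.24, limma adjusted p = 0.0373). Il2ra, the alpha chain of the interleukin-2 receptor, was 2.17-fold higher (limma adjusted p = 0.0363), and Cxcr5, a homing receptor of B cells and follicular T cells, 2.26-fold (limma adjusted p = 0.0483). The signalling genes Stat4 and Skap1, picked after their values were seen, gave log2 fold changes of 0.79 and 1.01. Of the T cell genes that did not pass, Cd8b1 gave 0.94 (limma adjusted p = 0.112), Foxp3 0.73 (0.0979), Cd3e 0.50 (0.194) and Cd4 0.11 (0.798).

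Of 12 erythrocyte and platelet genes, the 9 that were well above background in all 6 samples were summed. Their summed level was 16.37 to 16.71 log2 units after core CuO, 16.80 to 17.73 after CuO PEG and 18.10 to 18.76 in the OVA controls. The same sum, over the 17 of 20 T cell genes well above background, was 12.36 to 12.64 after core CuO. It was 13.29 to 13.59 after CuO PEG and 13.52 to 13.85 in the controls. Of the 12 blood genes, some were higher and others lower than in the controls, 1 higher and 6 lower after core CuO (median −0.31) and 2 higher and 4 lower after CuO PEG (median −0.22). Between the materials 0 of the 12 blood genes were called, with a median of 0.18, and 4 with arrays as a random block without slide terms. The part of blood content in the lymphocyte differences was not tested.

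**Figure D2:**
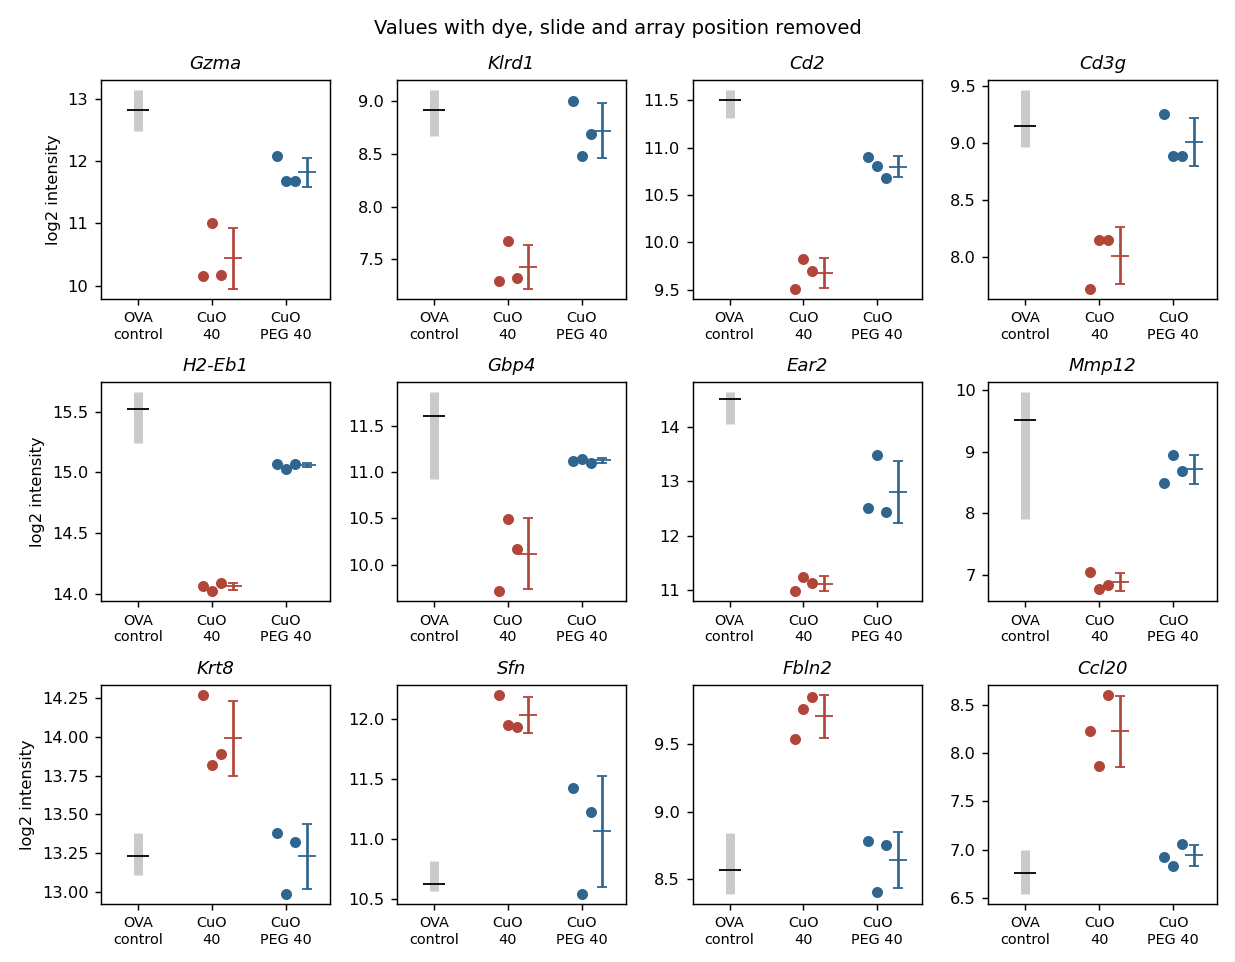
Log2 intensity of 12 genes with dye, slide and array position removed (y axis, scaled per gene), in OVA controls, CuO 40 and CuO PEG 40 samples of OVA-challenged mice. Points are the 3 samples of a material with the mean and SD beside them, the grey bar is the lowest to highest of 8 OVA controls and its black line the median. The genes were picked from called genes, all of which have separate groups, as 30.3% of all genes do, so the gap between the materials is a description.

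MHC class II genes were higher after CuO PEG. The promoters of class II genes share short boxes that bring them under the transactivator Ciita, one of them the Y box, read by the factor NF-Y. The promoter windows of 3 of the called class II genes that hold its core are printed because these genes were called in 1 direction and share it. The windows (RefSeq, GRCm38.p6, 250 bases before to 50 after the start of the gene, 5′ to 3′ on the gene's strand) carry the core TGATTGG, searched on both strands, in capitals:
H2-Eb1, chr17:34305617-34305916, plus strand: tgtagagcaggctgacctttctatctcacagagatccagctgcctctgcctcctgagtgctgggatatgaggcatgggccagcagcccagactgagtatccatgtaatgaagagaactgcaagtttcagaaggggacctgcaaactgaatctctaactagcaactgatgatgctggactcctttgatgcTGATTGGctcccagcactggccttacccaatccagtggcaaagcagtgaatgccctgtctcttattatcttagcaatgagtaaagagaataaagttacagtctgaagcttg
H2-Aa, chr17:34287774-34288073, minus strand: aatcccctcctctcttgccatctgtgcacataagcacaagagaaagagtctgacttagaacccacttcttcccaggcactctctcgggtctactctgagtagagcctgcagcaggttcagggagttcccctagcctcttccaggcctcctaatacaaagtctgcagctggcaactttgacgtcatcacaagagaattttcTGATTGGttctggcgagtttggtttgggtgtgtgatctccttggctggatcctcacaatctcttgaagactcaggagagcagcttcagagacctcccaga
H2-DMb1, chr17:34152941-34153240, plus strand: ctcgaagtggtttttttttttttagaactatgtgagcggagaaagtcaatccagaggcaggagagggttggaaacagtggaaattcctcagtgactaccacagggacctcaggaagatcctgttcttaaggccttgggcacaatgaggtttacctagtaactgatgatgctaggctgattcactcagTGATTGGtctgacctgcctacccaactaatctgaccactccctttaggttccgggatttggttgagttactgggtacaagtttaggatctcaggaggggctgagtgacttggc
The core began 61, 50 and 63 bases before the start of H2-Eb1, H2-Aa and H2-DMb1. It was found in 7.82% of all 32851 windows of that length, and of the 90 called genes 64 had a window and 9 of these held it, against 2431 of 27025 genes with a window. Beside the 3 printed, the called genes that held it were Stat4, Gzma, Ear1, Ear2, Ear10 and Psmb9. These are not class II genes and were also called higher. The called class II gene H2-Ab1 had no window. The match is a description of the letters.

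H2-Eb1 encodes the beta chain of the I-E molecule. It read 14.06, 14.02 and 14.09 after core CuO and 15.07, 15.03 and 15.07 after CuO PEG, with controls from 15.24 to 15.66 (median 15.52). The SD of these values, with dye, slide and array position removed, was 0.03 after core CuO and 0.02 after CuO PEG (n = 3 each). It leaves out the uncertainty of the removed terms, which the SE below includes. Both materials lay below every control. The fold was 2.00 (SE of the log2 value 0.19, limma adjusted p = 0.00865). H2-Aa, the alpha chain of I-A, read 8.83, 8.91 and 8.86 after core CuO and 9.80, 9.49 and 9.92 after CuO PEG (1.83-fold, limma adjusted p = 0.0477). H2-Ab1, the beta chain of I-A, was 1.76-fold higher (limma adjusted p = 0.0209). H2-DMb1, part of the molecule that loads peptides onto class II, read 12.02, 12.07 and 11.82 after core CuO and 12.77, 12.59 and 12.72 after CuO PEG (1.65-fold, limma adjusted p = 0.0272). Class II genes are close in sequence, so a probe for one may bind transcripts of another.

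Of 16 B cell and antigen presentation genes, 4 were higher and 0 lower, with a median of 0.65. The 4 were H2-Aa, H2-Ab1, H2-Eb1 and the chemokine Ccl5. The B cell receptor and surface genes Cd79a and Ms4a1 gave 0.26 and 1.08 (limma adjusted p = 0.793 and 0.354), Ciita itself 0.65 (0.141) and Cd74, the class II chaperone, 0.61 (0.314). The count of 4 was 0 without core CuO replicate 1, 2 without core CuO replicate 3 and 1 without CuO PEG replicate 1. Relative to the OVA controls of the same slides, with the hybridisation as a fixed term and with only OVA samples it was 0. When arrays were a random block without slide terms it was 10.

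Of 27 genes of the interferon gamma response and antigen processing, 8 were higher and 0 lower, with a median of 0.67. This list was also written after the called genes were seen. Gbp4, an interferon-induced GTPase, read 9.71, 10.49 and 10.17 after core CuO and 11.12, 11.15 and 11.10 after CuO PEG, with controls from 10.93 to 11.87. The CuO PEG samples all lay within the control range and the core CuO samples all below it (log2 fold change 1.00, SE 0.24, limma adjusted p = 0.0332). Cd274, which encodes the checkpoint ligand PD-L1, read 8.51, 8.90 and 8.57 after core CuO and 9.85, 9.55 and 9.78 after CuO PEG (2.09-fold, limma adjusted p = 0.012). Here the CuO PEG samples lay above every control (8.96 to 9.39). Ido1, a tryptophan-degrading enzyme, was 2.11-fold higher (limma adjusted p = 0.033), well above background in 3 CuO PEG and 2 core CuO samples. The immunoproteasome subunits Psmb9 and Psmb10, the class I light chain B2m and the transcription factor Batf2 gave log2 fold changes of 0.70, 0.62, 0.71 and 0.74. Cxcl9, an interferon-induced T cell chemokine, gave 1.73 and missed the threshold (limma adjusted p = 0.0529). The count of 8 was 0 without core CuO replicate 1 or CuO PEG replicate 1, 3 without core CuO replicate 3, 4 without CuO PEG replicate 3 and 3 and 2 without OVA control replicates 4 and 7, and 12 without CuO PEG replicate 2. Relative to the OVA controls of the same slides it was 1, and with the hybridisation as a fixed term or only OVA samples 0. When arrays were a random block without slide terms it was 17.

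The eosinophil-associated ribonucleases, a rodent family secreted by eosinophils and also made by macrophages, gave 4 of the largest differences. Ear2 read 10.98, 11.25 and 11.13 after core CuO and 12.52, 13.48 and 12.44 after CuO PEG, against 14.05 to 14.64 (median 14.51) in the OVA controls. All 6 samples were below every control, the core CuO samples the furthest. The fold between materials was 3.24 (log2 1.69, SE 0.35, limma adjusted p = 0.0134). Ear10 read 10.14, 10.68 and 10.35 after core CuO and 11.95, 12.28 and 11.82 after CuO PEG, against 13.06 to 13.80 in the controls (log2 1.63, SE 0.32, limma adjusted p = 0.011). Ear1 and the related Rnase2a gave 1.53 and 1.58 (limma adjusted p = 0.0257 and 0.033). Rnase2a gave 1.16 with the hybridisation as a fixed term and 2.38 with only OVA samples in the fit, and was called in neither. These genes are near copies, and how far each probe reads its own gene is uncertain.

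Of 14 eosinophil and eotaxin genes, these 3 Ear genes were higher, 0 were lower, and the median was 0.39. Genes that define eosinophil granules and surface did not pass. Epx, eosinophil peroxidase, read 6.89, 6.65 and 7.03 after core CuO and 6.81, 6.83 and 7.43 after CuO PEG, a log2 difference of 0.17 with a 95% interval of −0.59 to 0.93. Prg2, the major basic protein, differed by 0.45 (−0.41 to 1.30), Siglecf by 0.19 (−0.22 to 0.60) and the eotaxin receptor Ccr3 by 0.20 (−0.45 to 0.86). The eotaxin Ccl11 gave 1.29 (limma adjusted p = 0.106). The count of 3 was 0 without core CuO replicate 1, 1 without CuO PEG replicate 2 and 2 without core CuO replicate 3 or CuO PEG replicate 1. Relative to the OVA controls of the same slides it was 2, and with the hybridisation as a fixed term or only OVA samples 0. When arrays were a random block without slide terms it was 3.

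Among macrophage genes, Mmp12, the macrophage elastase, read 7.06, 6.78 and 6.84 after core CuO and 8.49, 8.95 and 8.69 after CuO PEG, against 7.91 to 9.96 (median 9.51) in the controls. The CuO PEG samples lay within the wide control range and the core CuO samples below it. The fold was 3.52 (log2 1.82, SE 0.44, limma adjusted p = 0.0373). Slamf8, a receptor of activated macrophages, read 7.44, 7.47 and 7.46 after core CuO and 8.90, 8.64 and 8.91 after CuO PEG (2.57-fold, limma adjusted p = 0.00865). Itgax, the integrin CD11c, was the 1 of 16 alternative macrophage genes called (log2 0.82, limma adjusted p = 0.0307), with a list median of 0.46, and Pparg, a regulator of lipid handling, the 1 of 18 alveolar macrophage genes (log2 0.59, limma adjusted p = 0.0369), with a median of 0.22. The chitinase-like Chil4, a secreted product of alternative activation, gave 1.69 and did not pass (limma adjusted p = 0.0938). Of 14 Th2 genes, the transcription factor Gata3 was called (log2 0.81, limma adjusted p = 0.0443), with a median of 0.32. The single calls of these 3 lists were lost without single samples. That of the Th2 list was 0 without core CuO replicate 1 or 3, CuO PEG replicate 1 or 2 or OVA control replicate 1, 3, 4, 6 or 7, that of the alternative macrophage list 0 without core CuO replicate 1 or 3, CuO PEG replicate 1 or OVA control replicate 4 or 7 and 2 without core CuO replicate 2, and that of the alveolar macrophage list 0 without core CuO replicate 1, CuO PEG replicate 2 or 3 or OVA control replicate 2, 4 or 7. For Mmp12 the log2 fold change was 0.96 when arrays were a random block and 2.89 with only OVA samples, and for Slamf8 0.68 with the hybridisation as a fixed term. Sfrp2, a secreted Wnt antagonist of fibroblasts, was 2.47-fold higher (limma adjusted p = 0.0125).

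The largest difference among the called genes belonged to the predicted gene Gm15056, which the rule for naming left out and which was picked after its values were seen. It read 9.08, 9.43 and 8.50 after core CuO and 12.45, 10.93 and 12.36 after CuO PEG, against 11.76 to 13.42 in the controls. All CuO PEG samples lay above all core CuO samples, at 7.51-fold (log2 2.91, SE 0.63, limma adjusted p = 0.0194).

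The 11 lower genes included epithelial keratins. Krt8, a simple keratin of lung epithelium that is raised in injured alveolar cells, read 14.27, 13.82 and 13.89 after core CuO and 13.38, 12.99 and 13.32 after CuO PEG, against 13.11 to 13.38 (median 13.23) in the OVA controls. The core CuO samples lay above every control, and replicates 1 and 3 after CuO PEG lay within the control range. The log2 fold change was −0.76 (1.70-fold lower, SE 0.14, limma adjusted p = 0.00865). Krt7 read 13.18, 12.69 and 12.61 after core CuO and 12.09, 11.93 and 12.22 after CuO PEG (log2 −0.74, limma adjusted p = 0.0209). Sfn, the epithelial 14-3-3 sigma protein of cell cycle arrest, read 12.20, 11.95 and 11.93 after core CuO and 11.42, 10.54 and 11.22 after CuO PEG, against 10.56 to 10.81 in the controls, so that CuO PEG samples ran from below to above the controls (log2 −0.97, SE 0.22, limma adjusted p = 0.0274). When arrays were a random block without slide terms, Krt7 turned to 0.19, and Krt8 and Sfn gave −0.23 and −0.28. Of 14 genes of simple keratins and injured epithelium, a list written after the called genes were seen, 0 were higher and these 3 lower, with a median of −0.22. Krt19 gave −0.60 (limma adjusted p = 0.055) and Krt18 −0.31 (0.527). The count of 3 was 0 without core CuO replicate 1, 1 without CuO PEG replicate 2 and 2 without CuO PEG replicate 1. Relative to the OVA controls of the same slides it was 1. With the hybridisation as a fixed term, with only OVA samples and with arrays as a random block it was 0.

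Fbln2, Col2a1, Col7a1, Ccl20 and Neat1 were also among the lower genes. Fbln2, an extracellular matrix glycoprotein, read 9.54, 9.76 and 9.85 after core CuO and 8.78, 8.40 and 8.75 after CuO PEG, against 8.39 to 8.84 in the controls. All CuO PEG samples lay within the control range and all core CuO samples above it (log2 −1.07, SE 0.22, limma adjusted p = 0.0134). Col2a1, the fibrillar collagen of cartilage, read 8.93, 9.05 and 9.07 after core CuO and 7.86, 7.91 and 7.80 after CuO PEG (log2 −1.16, limma adjusted p = 0.0392), and Col7a1, the anchoring fibril collagen, gave −0.70 (limma adjusted p = 0.0319). Ccl20, the epithelial chemokine for CCR6, read 8.23, 7.87 and 8.61 after core CuO and 6.92, 6.83 and 7.06 after CuO PEG, against 6.54 to 7.00 in the controls. Its fold was 2.46 lower (log2 −1.30, SE 0.31, limma adjusted p = 0.0332). The nuclear long non-coding RNA Neat1 read 10.91, 10.47 and 10.63 after core CuO and 9.89, 9.89 and 9.92 after CuO PEG (log2 −0.77, limma adjusted p = 0.012). The remaining lower genes were Riiad1, Vwa1 and Atoh8, with log2 fold changes of −0.80, −0.60 and −0.59. Of 21 matrix, protease and wound repair genes, 1 was higher (Mmp12), 0 were lower, and the median was −0.13. That 1 call was lost without any 1 of the 6 exposed samples and without OVA control replicate 4 or 7. When arrays were a random block without slide terms, Neat1 turned to 0.15, Col2a1 gave −4.18, Col7a1 −0.28, Riiad1 −0.16, Vwa1 −0.23 and Atoh8 −0.02. Relative to the OVA controls of the same slides, Col2a1 gave −0.44, and with the hybridisation as a fixed term Ccl20 gave −1.99.

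**Figure D3:**
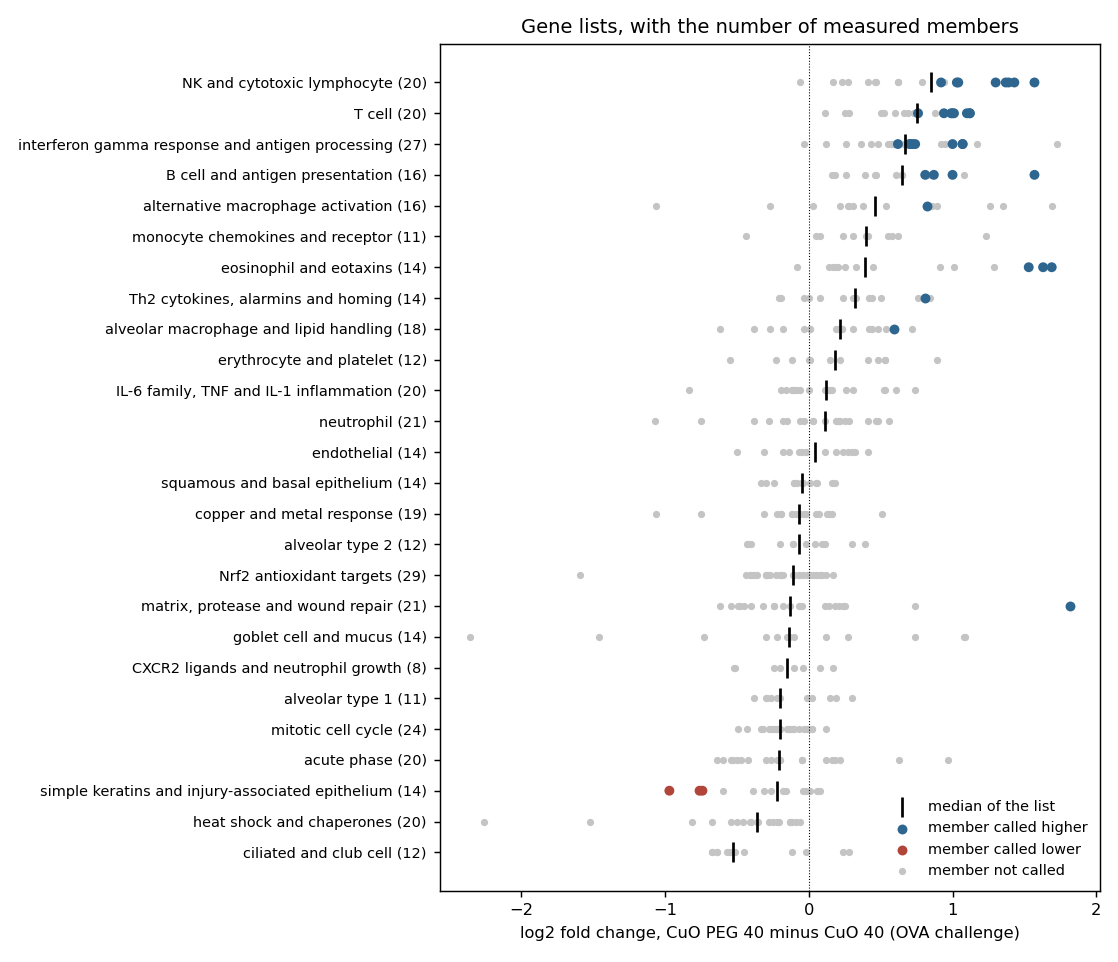
Log2 fold change of the measured members of 26 gene lists (x axis, CuO PEG 40 minus CuO 40, OVA challenge), 1 line per list with its number of measured members in brackets. Blue and red points are members called higher and lower, grey points members not called, and the black mark is the median, from 0.85 for NK and cytotoxic lymphocytes to −0.53 for ciliated and club cells.

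Several hallmark groups gave no call between the materials in the reported fit. Of 21 neutrophil genes 0 were called, with a median of 0.11, and 4 with arrays as a random block without slide terms. The lectin receptor Clec4d read 11.60, 11.73 and 11.70 after core CuO and 11.27, 11.05 and 11.56 after CuO PEG, against 8.72 to 9.18 in the OVA controls. Both materials lay far above the controls, and the difference between them was −0.38 with a 95% interval of −1.02 to 0.26. The calprotectin subunit S100a8 differed by −0.15 (−0.98 to 0.67), the collagenase Mmp8 by −0.06 (−0.73 to 0.61) and the chemokine receptor Cxcr2 by −0.03 (−0.79 to 0.73). Of the 21 neutrophil genes, the 20 well above background in all 6 samples were summed. Their summed level was 16.57 to 17.08 after core CuO, 16.63 to 16.72 after CuO PEG and 15.85 to 16.19 in the controls.

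Of 14 goblet cell and mucus genes 0 were called, with a median of −0.14. This count was 1 with arrays as a random block, and 1 without core CuO replicate 2 or CuO PEG replicate 3. The gel-forming mucin Muc5ac differed by 0.12 (95% interval −1.11 to 1.36) and the mucus regulator Clca1 by −0.15 (−2.67 to 2.37), intervals too wide to show that the materials act alike. The airway secretoglobin Scgb3a1 gave −2.36 (limma adjusted p = 0.0853). Of 20 acute phase genes 0 were called (median −0.21), or 1 with arrays as a random block, and Saa3 differed by 0.18 (−1.33 to 1.69).

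The genes that answer metal and oxidative stress did not pass either, although single members had large values. Mt1, which binds copper and zinc, read 12.13, 12.26 and 12.11 after core CuO and 11.31, 11.28 and 11.65 after CuO PEG, against 10.22 to 10.91 in the controls, so that the order was core CuO, CuO PEG, controls with no overlap. The 2 materials did not overlap in 30.3% of all genes. The log2 difference of Mt1 between materials was −0.75 (95% interval −1.27 to −0.24, limma adjusted p = 0.198). Of other members picked for large falls, Mt2 gave −1.06 (limma adjusted p = 0.234), the haem oxygenase Hmox1 −1.59 (0.119) and the inducible chaperone Hspa1a −2.26 (0.0882). Over the lists, 0 of 19 copper and metal genes (median −0.07, with 6 of 19 above zero), 0 of 29 Nrf2 antioxidant targets (−0.11, 8 of 29) and 0 of 20 heat shock genes (−0.36, 0 of 20) were called. These counts were 4, 1 and 3 with arrays as a random block without slide terms. The heat shock count was 1 without core CuO replicate 2. The only gene called with the hybridisation as a fixed term was 1 Nrf2 target. In the reported fit the count was also 0 for ciliated and club cell (12 genes, median −0.53), mitotic (24, −0.20), alveolar type 1 (11, −0.20), alveolar type 2 (12, −0.07), endothelial (14, 0.04), squamous and basal (14, −0.05), CXCR2 ligand (8, −0.15), monocyte chemokine (11, 0.40) and IL-6, TNF and IL-1 genes (20, 0.12). With arrays as a random block it was 2 for the ciliated and club cell, the alveolar type 2 and the IL-6, TNF and IL-1 genes.

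Set against the same 8 OVA controls, core CuO at 40 changed 770 genes (3.36%, 361 higher or 1.58% and 409 lower or 1.79%) and CuO PEG at 40 changed 299 (1.31%, 203 higher or 0.886% and 96 lower or 0.419%). The difference between these counts was not tested as such, and the count after CuO PEG was 191, 482 and 160 without its replicates 1, 2 and 3. Both comparisons share the controls, and each also shares its exposed samples with the direct comparison, so their values are given side by side. Of the 20 T cell genes, 15 fell after core CuO (median −0.91) and 1 fell after CuO PEG (median −0.12). Of the 20 cytotoxic genes, 15 fell after core CuO (median −0.87) and 2 after CuO PEG (−0.21). Of the 16 B cell and antigen presentation genes, 9 fell after core CuO (−0.98) and 0 after CuO PEG (−0.13), and of the 27 interferon gamma genes 12 and 0 (−0.55 and 0.07). The cytotoxic and interferon gamma lists were written after the genes called in the direct comparison were seen. That choice in part fixes the order of their values, so their counts are a description. H2-Eb1 fell by 1.44 after core CuO and gave −0.44 after CuO PEG (limma adjusted p = 0.0613). Ear2 fell after both, by 3.31 and by 1.62.

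For single genes called in the direct comparison, higher or lower, the choice of genes in part fixes the order of the values against the controls. Ccl20 rose by 1.47 after core CuO and gave 0.17 after CuO PEG (limma adjusted p = 0.816), Sfn 1.38 and 0.42 (the latter with limma adjusted p = 0.153), Fbln2 1.13 and 0.05 (0.932) and Krt8 0.77 and 0.00 (0.996). The neutrophil genes rose after both materials, 9 higher and 2 lower of 21 after core CuO (median 0.42) and 10 higher and 1 lower after CuO PEG (median 0.48), with Clec4d at 2.72 and 2.34 and S100a8 at 1.90 and 1.75. Goblet genes fell after both, 9 of 14 each (medians −1.16 and −1.21), with 1 gene higher after core CuO, and Muc5ac fell by 2.12 and by 1.99. Of the 16 alternative macrophage genes, 11 fell and 1 rose after core CuO and 4 fell after CuO PEG. Mt1 rose after both, by 1.52 and 0.77, and Hmox1 by 2.29 after core CuO, with 0.70 after CuO PEG (limma adjusted p = 0.316).

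**Figure D4:**
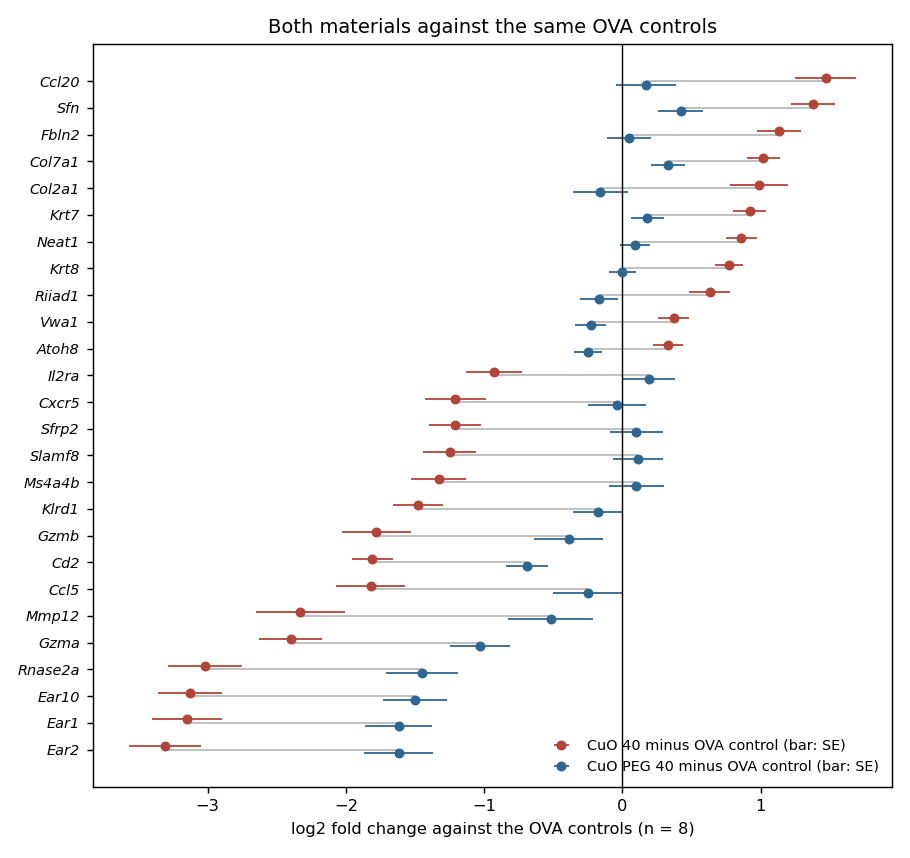
Log2 fold change of the 26 named genes against the 8 OVA controls (x axis), 1 line per gene, after CuO 40 (red) and CuO PEG 40 (blue), with bars of 1 SE. Both colours share the controls. The genes were chosen for their difference between the materials, which in part fixes the order of the colours. The 4 ribonuclease genes lie lowest after both materials.

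In PBS-challenged mice, which share no sample with the comparison above but lay on the same sets of slides and share its slide terms, CuO PEG and core CuO at 40 differed in 1005 genes (4.39%, 461 higher and 544 lower), or 592 without PBS core CuO replicate 2. Of the 79 genes higher after CuO PEG in the allergic lung, 56 were called higher here, where 2.01% of all genes were, and their median was 0.85. Of the 11 lower genes, 10 were called lower, where 2.37% of all genes were, with a median of −0.79. Of the T cell genes 16 of 20 were higher after CuO PEG, with a median of 1.03. Gzma read 9.76 to 10.19 after core CuO (median 9.84) and 11.78 to 12.29 after CuO PEG (median 12.03), a log2 fold change of 2.10 (limma adjusted p = 1.42e-06), with PBS controls from 11.83 to 12.46. Fbln2 gave −1.54 and Krt8 −0.77, both called lower. Of the stress lists, 1 gene was higher and 2 lower of 19 copper and metal genes, 1 higher and 2 lower of 29 Nrf2 targets and 0 higher and 2 lower of 20 heat shock genes, the lower ones including Mt1 at −1.52, Hmox1 at −1.65 and Hspa1a at −2.30. None of the members of these 3 lists passed in the interaction below. Of the 24 mitotic genes 22 were lower after CuO PEG (median −0.78). In the interaction 0 of the 24 passed, and 24 lay above zero (median 0.70).

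The difference of the 2 contrasts was tested as an interaction, which called 2 genes (0.00873%), Csf2 (negative) and Kif18b (positive), each 0.00436% of all genes (2057 genes at an unadjusted p below 0.05). The interaction count ran from 0 to 22 when single samples were left out, with 22 without PBS core CuO replicate 1, 11 without OVA CuO PEG replicate 2, 5 without OVA core CuO replicate 3, 1 without OVA core CuO replicate 1, PBS core CuO replicate 2 or 3, and 0 without OVA core CuO replicate 2, OVA CuO PEG replicate 1 or 3, or PBS CuO PEG replicate 2 or 3. Gm15056 was high in the allergic lung and low under PBS, where it gave −0.29 between the materials, and its interaction of 3.20 did not pass (limma adjusted p = 0.224). Of the other 89 called genes 0 passed in the interaction.

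CuO PEG was also set beside the other coated particles at the same dose. CuO NH3 lay on slides 4 to 6, sharing slides 4 and 5 with CuO PEG, and 445 genes differed (1.94%, 284 higher and 161 lower after CuO PEG), 247 without CuO NH3 replicate 3. Against CuO COOH, which lay on slides 1 and 2 and shared no slide with CuO PEG, 196 genes differed (0.855%, 91 higher and 105 lower), 130 without CuO PEG replicate 2. When arrays were a random block the counts were 433 against CuO NH3 and 1202 against CuO COOH, and with the hybridisation as a fixed term 0 and 5 (limma), so the order of these counts depends on the terms. Both share the CuO PEG samples with the comparison against core CuO. Of the T cell genes 13 of 20 were higher after CuO PEG than after CuO NH3 (median 0.78) and 9 of 20 than after CuO COOH (median 0.71). Of the interferon gamma genes 19 of 27 were higher than after CuO NH3 (median 0.83) and 1 of 27 than after CuO COOH (median 0.15). The interferon gamma list was written after the genes called against core CuO were seen, so these counts are a description. H2-Eb1 was higher by 1.04 and 1.07. Gzma gave 1.26 against CuO NH3 and 0.69 against CuO COOH, the latter without passing (limma adjusted p = 0.235). Fbln2 gave −1.64 against each and was called lower in both. Krt8 was called lower than after CuO COOH (−0.82) and gave −0.33 against CuO NH3 (limma adjusted p = 0.0761).

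At lower doses of both materials little passed the threshold. At 10, 0 genes were called by limma in the OVA-challenged mice (1404 at an unadjusted p below 0.05), and at 2.5, 1 gene was lower after CuO PEG (0.00436%), Pbld2 (log2 −0.88, limma adjusted p = 0.0153, 1639 at an unadjusted p below 0.05). The call of Pbld2 was lost (0 genes) without core CuO replicate 2 or CuO PEG replicate 1 or 2 of that dose, while 2, 4 and 7 genes were called without OVA control replicate 6, core CuO replicate 3 and CuO PEG replicate 3, and at 10 the count was 2 without CuO PEG replicate 3. The 79 genes higher at 40 had a median of 0.35 at 10 and of 0.02 at 2.5, against 0.00 over all genes at each, and the 11 lower genes had a median of −0.45 at 10. Sfrp2 gave 1.24 at 10 (limma adjusted p = 0.092) and Gzma 0.79 (limma adjusted p = 0.716).

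Because the PEG-coated particle carries less copper, CuO PEG at 40 was also set beside core CuO at 10, at which the doses of material differ. Of all genes 1 was called (0.00436%), Spdef, a goblet cell transcription factor, lower after CuO PEG 40 (log2 −1.67, limma adjusted p = 0.00973, 1456 genes at an unadjusted p below 0.05). It read 9.25, 8.94 and 9.54 after CuO PEG 40 and 10.77 to 11.08 after core CuO 10. The count was 7, 6, 3 and 2 without core CuO 10 replicate 2, CuO PEG 40 replicate 3, CuO PEG 40 replicate 1 and OVA control replicate 6, and 0 without CuO PEG 40 replicate 2 or core CuO 10 replicate 1. The 79 genes had a median of 0.08 in this comparison, which shares the CuO PEG samples. Ear2 gave −0.59 and Mmp12 −0.04.

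**Figure D5:**
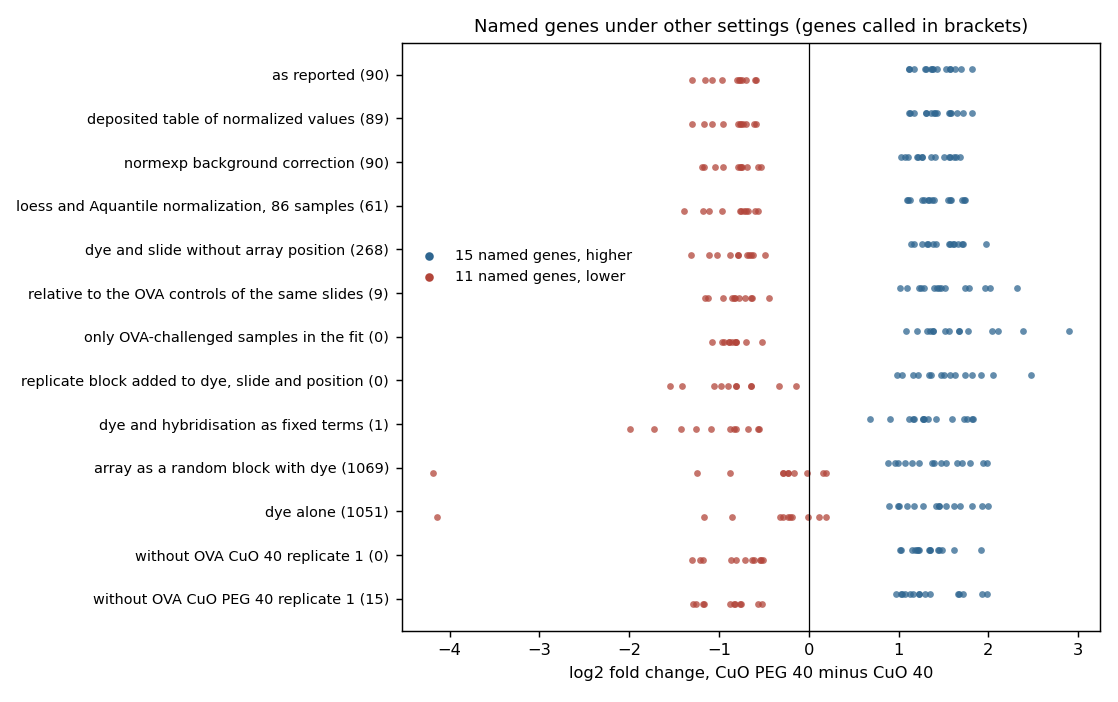
Log2 fold change of the 26 named genes (x axis, CuO PEG 40 minus CuO 40, OVA challenge) under the reported fit and 12 other settings (y axis, with the number of genes called by each in brackets). Blue points are the 15 named genes higher and red points the 11 lower after CuO PEG. The 15 stay above zero in all settings drawn, and of the 11 Neat1 and Krt7 cross zero with dye alone and with the array as a random block.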

How the data were processed

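Lung RNA of 89 samples in 26 groups was measured on 46 Agilent 2-colour arrays of 6 slides, and groups, doses and replicate numbers came from the sample labels. The labels give the dose in μg in one field and in mg in another, and μg is used here. The authors deposited scanner output with the median foreground intensity of each spot and channel (Feature Extraction 12.0.2.2 per the file headers), not normalized, and a table of log2 values that they had quantile normalized and adjusted for labelling and array with ComBat according to their methods. The deposited log2 table ordered the probes as the sample's own channel did in 89 of 89 samples (lowest rank correlation 1 after rounding, column medians 6.482 to 6.507). A batch adjustment shifts each probe by itself and would change that order, so the deposited values do not appear to hold it. The table served as an alternative, but it is close to the values used here and not an independent processing.

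Each sample was read from its own channel: log2 of the median foreground with the background left in, then quantile normalization of all 89 samples together. Control spots and outlier spots were left out, spots were averaged to 56605 probes, and the 32994 probes named through a RefSeq accession (GRCm38.p6) to 22911 genes. The other 23611 probes were not used, and 60 genes had a missing value in some sample, which the fit dropped. One limma model (limma 3.58.1, R 4.3.3) held all groups with dye, slide and array position as terms (50 residual degrees of freedom), with Benjamini-Hochberg adjustment over all genes. A call needed both an adjusted p under 0.05 and a log2 fold change beyond 0.58 in either direction. Intervals are 95%, per gene. Sample values printed are log2 with these terms removed, and "well above background" is the scanner's mark. The scripts were tested on simulated data.

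Named genes were at most the 15 largest called changes in each direction, well above background in all 6 samples, whose groups did not overlap, with predicted names left out. This gave 15 higher genes and all 11 lower genes. Other names come from 23 gene lists written by hand and from 3 added after the called genes were seen. The members, lists and tests were chosen with earlier results of these data known. The alternatives tried were other batch terms, the hybridisation, the array as a random block, a replicate block, OVA samples alone, controls of the same slides, normexp, loess, the deposited table, dim probes, the brightest probe and leaving out samples. A fit with terms for the replicate number and dye alone was added after seeing the data.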

Additional observations from a re-analysis of the deposited data

Results flagged for a closer look

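Among the 26 named genes, Cxcr5 had 1 sample far from the others of its group: OVA control replicate 8 read 8.89 log2 units against 8.54 for the next control, a gap of 0.552 of the range of the 8 controls. Chance gives such a sample in about 1 group in 20.

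The interaction of material and challenge was past the threshold for 2 genes (limma, 12 samples in the contrast). Csf2, the cytokine GM-CSF, gave −0.20 between CuO PEG and core CuO under OVA and 1.11 under PBS, a difference of −1.31 (SE 0.24, limma adjusted p = 0.0151). Under PBS it read 7.46 to 7.94 after core CuO and 8.57 to 8.91 after CuO PEG, and under OVA 7.80 to 8.05 and 7.70 to 7.77. Kif18b, a mitotic kinesin, gave −0.15 under OVA and −1.12 under PBS, a difference of 0.97 (SE 0.18, limma adjusted p = 0.0151). It read 7.57 to 7.84 after core CuO and 6.53 to 6.73 after CuO PEG under PBS.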

How the results depend on the processing

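The direct comparison depended on how arrays and slides were modelled. Against 90 genes reported, 90 were called with normexp, 89 in the deposited table, 104 without dim probes, 101 with the brightest probe and 61 with loess. The count was 268 with dye and slide alone, 1 with the hybridisation as a fixed term, 0 with only OVA samples (limma) and 9 relative to OVA controls of the same slides. It was 1069 (505 higher, 564 lower) when arrays were a random block, 1051 (514 and 537) with dye alone and 1158 with replicate number and dye alone, and these 3 leave the slides out, so that the split between higher and lower also moved. In them 85 of the 90 genes kept their sign, and 68, 69 and 70 their call. All 90 kept their sign in the other settings, which refit the samples that the genes were chosen from. Of the 90 calls 0 were kept with the hybridisation as a fixed term, with only OVA samples or with a replicate block. Among the named genes Neat1 and Krt7 turned in the 3 fits without slides, to 0.15 and 0.19 with the random block, 0.11 and 0.20 with dye alone and 0.11 and 0.20 with replicate number and dye. In fits that held slide or array terms Neat1 came as near zero as −0.14, against −0.77 as reported. The cause was not tested. Leaving out single samples gave 0 to 180 genes.

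With the hybridisation as a fixed term the other counts were 361 for CuO 40 and 147 for CuO PEG 40 against OVA controls, 467 under PBS, 0 for the interaction, 0 against CuO NH3, 5 against CuO COOH, and 0 at 2.5 and against CuO 10. With the random block they were 1779 under PBS, 1 for the interaction, 1202 against CuO COOH, 1086 at 10, 1085 at 2.5 and 787 against CuO 10. Leaving out single samples gave 626 to 918 for CuO 40 and 160 to 482 for CuO PEG 40 against OVA controls, 592 to 1222 under PBS, 0 to 22 for the interaction, 247 to 514 against CuO NH3, 130 to 224 against CuO COOH, 0 to 2 at 10, 0 to 7 at 2.5 and 0 to 7 against CuO 10.

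In values with dye, slide and array position removed, samples with the same replicate number did not deviate together (correlations of −0.007, 0.060 and 0.018). Replicate numbers in part follow the slides, so removing the slide terms can also remove a shared effect. The check therefore cannot tell whether the numbers pair the samples. A replicate block beside dye, slide and position gave 0 genes in the direct comparison (limma), 0 for CuO PEG 40 against OVA controls, 0 for the interaction, 5 against CuO COOH, and 0 at 2.5 and against CuO 10. The number of arrays limits the precision, and why so few genes were called was not tested.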
